A study of Mus musculus with 48 samples.

Results

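Within T cells carrying a guide against Zfp219, chromatin accessibility was compared between 2 sorted states from tumours of aged mice, the state labelled Ttad and the state labelled Tprog. The comparison takes every peak in the deposited table, 53868 in all, and 4 of the series' 48 libraries, 2 of Ttad and 2 of Tprog, chosen by the guide, host and state in their titles. Accessibility was measured by ATAC-seq, in which the Tn5 transposase cuts and tags open DNA, so that the reads in a peak count the openings at that place. All cells were CD45.1 OT-1 CD8 T cells expressing Cas9 whose transgenic receptor recognises a peptide of ovalbumin. They had been transduced with a lentiviral vector holding a guide RNA and an ametrine reporter, and were transferred the day before B16-OVA melanoma cells were injected. Reporter-positive cells were sorted from the tumours at day 15. The labels describe Tprog as progenitor exhausted and sort it as Slamf6+Tim-3-. Ttad is Slamf6-Tim-3-, the double-negative gate, Tterm is Slamf6-Tim-3+ and Ttran is positive for both. In the titles, A was taken to mean an aged host and Y a young one; the ages themselves were not used here. The label for the perturbation is Zfp219KO, and Zfp219 encodes a zinc-finger protein; how many cells had lost it was not measured in these data. For comparison, the same 2 states were taken from aged hosts with the control called OTC and with a guide against Dusp5, 2 libraries of each state for each. Young-host OTC cells, which also carry Cas9 and the vector, gave a Tterm against Tprog comparison. Each library is a pool of 5000 to 50000 cells in which several mice were combined. Which mice fed which pool, and whether Ttad and Tprog came from the same mice, is not given in the sources used here, so p-values measure the spread between pools. The main test estimates that spread over all 48 libraries, not from the 4 compared alone.

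A tumour-reactive CD8 T cell that keeps meeting its antigen becomes exhausted. Progenitor exhausted cells hold the transcription factor TCF1, the product of Tcf7, stay able to self-renew and supply the other states. Terminally exhausted cells lose that programme, open genes for inhibitory receptors and cytotoxic proteins, and no longer renew. Much of the programme is written in distal enhancers, so changes in peak accessibility between states often lie away from promoters. The sort itself used Slamf6 and Tim-3 (encoded by Havcr2), and accessibility at those genes is therefore no finding.

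The 4 libraries held 9160914 and 12792515 reads in peaks for Tprog, and 15723953 and 15700492 for Ttad. Tprog was thus the shallower state in both libraries. With OTC the order was reversed, at 11511619 and 14660613 in Tprog and 8059981 and 10929698 in Ttad. It was also reversed with the Dusp5 guide, at 11495701 and 14722397 against 8887064 and 7786663. Tests of a difference between guides therefore set opposite depth orders against each other, and their counts after thinning are given below. Thinning all aged Ttad and Tprog libraries to 7786663 reads gave 4638 called peaks in place of the 4119 below. Replicates with the Zfp219 guide differed beyond counting noise, with a chi-square per degree of freedom of 2.91 in Ttad and 2.90 in Tprog. Their Pearson's r across peaks was 0.972 and 0.960, where peaks are not independent replicates. The Zfp219 promoter peak (chr14:52019226-52020740) had 1092 and 1036 normalised reads in Tprog and 1171 and 1269 in Ttad. Its log2 difference was 0.20 (SE 0.09, limma adjusted p = 0.157), and as a promoter peak it says nothing of whether the guide cut the gene. CD8 T cell markers were open in every library. Their 58 peaks summed to 21959 and 22471 normalised reads in Tprog and to 23414 and 23599 in Ttad, with 4 peaks higher and 2 lower in Ttad. No peak was assigned to the B cell genes Cd79a and Ms4a1, the myeloid genes Adgre1, Csf1r and Lyz2, or the melanoma genes Dct, Tyr and Tyrp1. The 11 peaks at the remaining B cell markers summed to 1343 and 1493 in Tprog and 1221 and 1181 in Ttad, with 1 lower. The 14 myeloid marker peaks summed to 1918 and 1853 against 1996 and 2056, with 1 higher, and the 7 melanoma marker peaks to 1390 and 1311 against 1073 and 1093, with 1 lower. The 13 natural killer marker peaks, at 3615 and 3608 against 3417 and 3441, held no called peak, and the 14 CD4 marker peaks held 1, at Zbtb7b. The part of other cells in the results was not tested.

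The largest called rise with the Zfp219 guide lay in the granzyme cluster on chromosome 14, whose genes encode the serine proteases that cytotoxic T cells deliver into target cells. The cluster was singled out after its values were seen. Of 20 peaks at 6 of its genes, 8 rose in Ttad and none fell, against 4.35% of all peaks rising. Leaving out 1 of the 4 libraries left 4 to 8 rises. The 250 bases before the start site of 5 of them follow, because their promoter peaks rose and because Gzme and Gzmd are so alike that reads may not tell them apart. Sequences are from RefSeq, GRCm38.p6, all from the minus strand, written 5′ to 3′ and ending at the base before the start site. They lie at chr14:56211408-56211657 (Gzmf), chr14:56120626-56120875 (Gzme), chr14:56132594-56132843 (Gzmd), chr14:56234658-56234907 (Gzmc) and chr14:56262335-56262584 (Gzmb), each inside its promoter peak. Capitals mark exact matches, on either strand, to the motifs searched.
Gzmf: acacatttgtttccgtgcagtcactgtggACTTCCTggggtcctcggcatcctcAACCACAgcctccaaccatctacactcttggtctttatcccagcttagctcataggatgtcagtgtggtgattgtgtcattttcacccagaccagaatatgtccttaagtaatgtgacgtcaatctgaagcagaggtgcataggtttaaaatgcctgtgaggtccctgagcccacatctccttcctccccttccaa
Gzme: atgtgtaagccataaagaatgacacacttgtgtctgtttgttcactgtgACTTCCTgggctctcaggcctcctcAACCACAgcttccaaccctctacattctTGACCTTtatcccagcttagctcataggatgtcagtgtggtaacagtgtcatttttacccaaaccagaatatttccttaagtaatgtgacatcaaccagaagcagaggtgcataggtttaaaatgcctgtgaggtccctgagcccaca
Gzmd: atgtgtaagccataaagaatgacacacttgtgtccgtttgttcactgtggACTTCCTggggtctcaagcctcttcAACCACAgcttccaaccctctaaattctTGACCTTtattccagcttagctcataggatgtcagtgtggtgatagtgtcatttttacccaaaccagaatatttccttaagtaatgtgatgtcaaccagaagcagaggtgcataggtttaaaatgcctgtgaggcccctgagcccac
Gzmc: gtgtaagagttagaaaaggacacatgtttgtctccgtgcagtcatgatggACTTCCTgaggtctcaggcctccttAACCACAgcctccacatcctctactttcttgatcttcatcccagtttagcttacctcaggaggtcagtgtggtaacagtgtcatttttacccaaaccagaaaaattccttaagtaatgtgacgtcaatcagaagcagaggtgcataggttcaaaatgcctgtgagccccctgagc
Gzmb: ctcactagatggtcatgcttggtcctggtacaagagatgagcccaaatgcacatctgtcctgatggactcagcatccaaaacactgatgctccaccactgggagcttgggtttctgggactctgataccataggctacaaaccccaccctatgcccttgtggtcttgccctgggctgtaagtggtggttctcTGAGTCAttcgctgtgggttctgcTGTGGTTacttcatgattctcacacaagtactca

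The Gzmf, Gzme, Gzmd and Gzmc windows each held an ETS match (AGGAAGT) and, nearer the start, a RUNX match (TGTGGTT), both on the opposite strand, so that the capitals show their reverse complements. Gzme and Gzmd also held the NR4A letters AAGGTCA on that strand, 148 and 147 bases before the start. Gzmb held an AP-1 match (TGANTCA) 58 bases before the start and a RUNX match at 34. Base for base, the Gzme and Gzmd windows were identical at 95.2% of 250 positions, and Gzmf at 82% with Gzme and 79.2% with Gzmc, while Gzmb shared 56.4% to 60.8% with the others. Over all 32851 promoter windows of 300 bases in the table, an ETS match was present in 7.69%, RUNX in 4.4%, NR4A in 4.08% and AP-1 in 6.75%. A match to such short letters describes the sequence and marks no bound site. How the authors placed reads that fit several granzyme genes is not given in the sources used here, so the split of reads between Gzmc, Gzmd, Gzme and Gzmf is uncertain.

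The Gzmf promoter peak (chr14:56210967-56211902) had 0 and 2.03 normalised reads in the Tprog libraries and 41.5 and 36.7 in the Ttad libraries. The groups did not overlap, a condition of the choice of the largest rises, and Tprog rested on 2 reads in all against 92 in Ttad. The ratio was 33.0, with a 95% interval of 8.88 to 277 for counting error alone, and the log2 difference was 4.52 (SE 0.51, limma adjusted p = 1.79e-10). Tterm with the same guide was higher again, at 94.8 and 105. With OTC the same peak went from 15.9 and 15.1 in Tprog to 31.9 and 54.2 in Ttad, a log2 difference of 1.37 (SE 0.51, adjusted p = 0.0948). The difference between those differences was 3.15 on the log2 scale (SE 0.73, limma adjusted p = 0.0222). That call was lost without Tprog replicate 1 or either Ttad library (adjusted p up to 0.282), and edgeR gave an adjusted p of 0.0854.

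At the Gzme promoter (chr14:56120101-56121340) the Tprog libraries had 18.5 and 17.3 normalised reads and the Ttad libraries 125 and 107. Ttad lay far above Tprog in both libraries, 6.49-fold in the means, with a log2 difference of 2.63 (SE 0.27, limma adjusted p = 2.57e-12). The OTC libraries went from 61.1 and 49.7 to 134 and 138, and the Tprog values stood above those with the Zfp219 guide while the Ttad values were nearer to them. The 2 differences were 1.34 apart (SE 0.38, limma adjusted p = 0.0942) and did not pass. Gzmd (chr14:56132391-56133267) went from 7.11 and 6.09 to 47.5 and 32.4 (log2 difference 2.41, SE 0.51, limma adjusted p = 0.000653). At Gzmb, the chief granzyme of effector cells, the promoter peak was already strong in Tprog. It had 603 and 610 normalised reads there and 782 and 819 in Ttad, a 1.32-fold rise in the means (log2 difference 0.40, SE 0.10, limma adjusted p = 0.0028). That call was lost without Ttad replicate 2 (adjusted p = 0.0627). Among these promoters the proportional difference was smallest at Gzmb, the strongest in Tprog, and largest at Gzmf, the weakest. With OTC 5 of the 20 peaks rose (3.82% of all peaks) and with the Dusp5 guide 6 (4.58%), and none fell with either (2.73% and 2.75%).

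**Figure D1:**
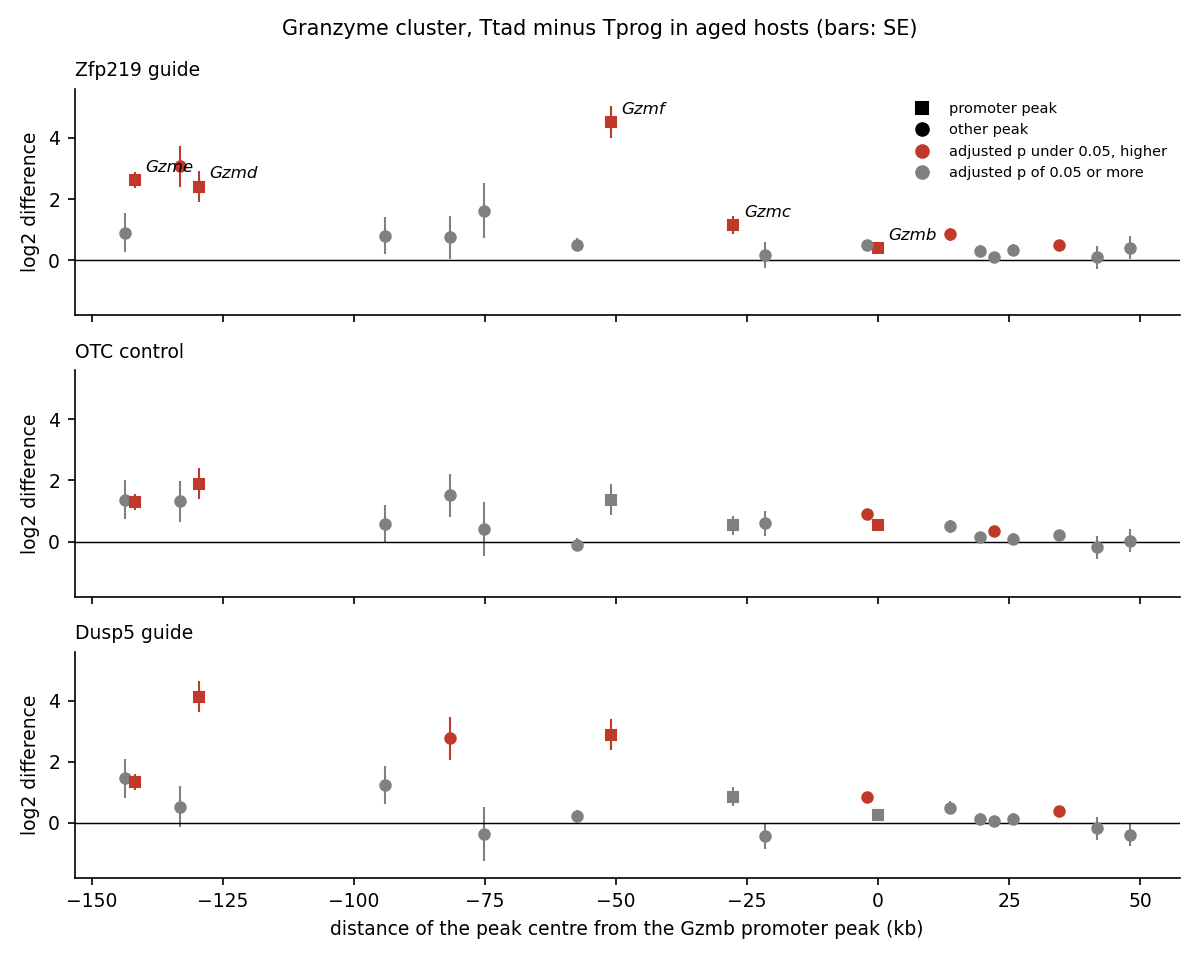
Log2 difference, Ttad minus Tprog, at the 20 peaks of the granzyme cluster in aged hosts, by distance from the Gzmb promoter peak in kb, for the Zfp219 guide, the OTC control and the Dusp5 guide (squares: promoter peaks; bars: SE; red: adjusted p under 0.05). With the Zfp219 guide 8 peaks are red, led by the Gzmf promoter at 4.52.

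Across the genome, 4119 peaks differed between Ttad and Tprog with the Zfp219 guide, 7.65% of those tested. In Ttad 2344 were higher (4.35%) and 1775 lower (3.3%). That balance depended on the fit: edgeR called 2116 higher and 2338 lower, and limma on the compared groups alone 2464 and 2635. A peak was called at a limma adjusted p under 0.05, on log2(normalised reads + 1). Called falls had the larger sizes: the median was 0.97 on the log2 scale for called falls and 0.63 for called rises. Of the 1414 called peaks with a log2 difference of at least 1 in size, 858 were lower and 556 higher. Neither comparison was matched for peak strength, and rises outnumbered falls at strong peaks but not at weak ones, as counted below. Over the weakest 13467 peaks the median difference was -0.215 on the deposited scaling and -0.055 after quantile normalisation. The median over all peaks was 0.01. The count depended on each library, at 1826 without Ttad replicate 1, 1898 without Ttad replicate 2, 1918 without Tprog replicate 1 and 2533 without Tprog replicate 2.

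Rises and falls sat in different kinds of peaks. Promoter peaks, those overlapping the 300 bases around a RefSeq start site, held 333 rises and 79 falls among 9254. These were 3.60% and 0.85%, against 4.35% and 3.3% of all peaks, so promoters had few falls rather than many rises. Other peaks inside gene bodies held 1141 rises and 949 falls among 25387, peaks outside but within 100 kb of a gene 761 and 600 among 16468, and peaks farther off 109 and 147 among 2759. By mean strength, the weakest 13467 peaks held 85 rises and 203 falls and the strongest 13467 held 1177 and 372. This tilt depended on scaling. After quantile normalisation, which gives every library the same distribution, the strongest 13467 held 576 rises and 568 falls, and promoters 126 and 110. The excess of rises over falls among strong and promoter peaks is therefore relative to the deposited scaling.

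**Figure D2:**
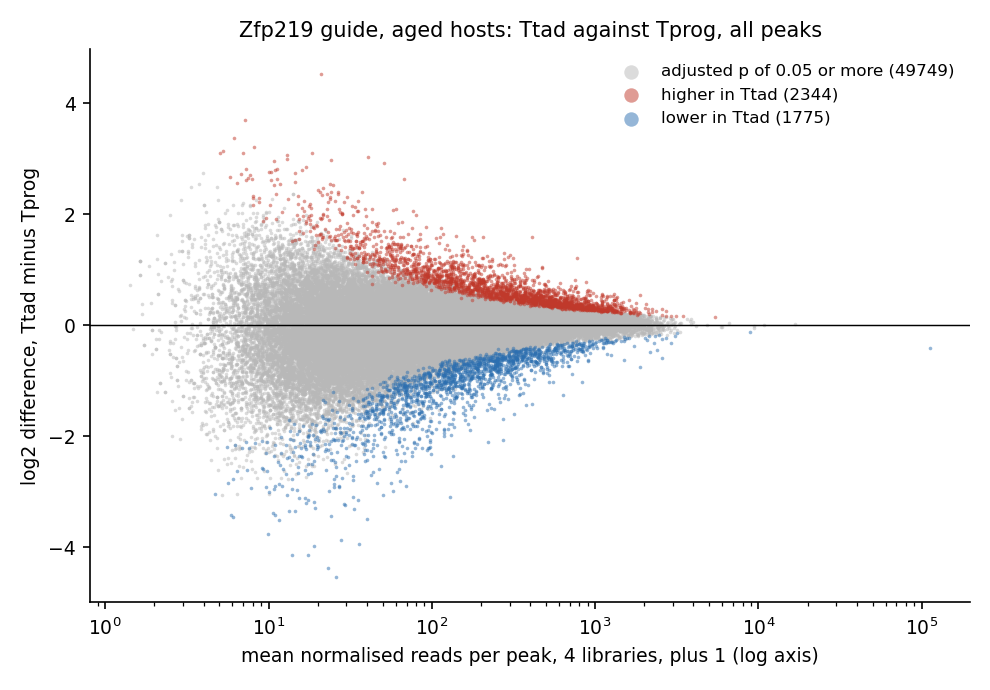
Log2 difference, Ttad minus Tprog, against the mean normalised reads of the 4 Zfp219 libraries plus 1 (log axis), 1 point per peak. Called rises (2344) reach into the strongest peaks at small sizes, and the deepest of the called falls (1775) lie at weak peaks.

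Genes of the progenitor programme lost accessibility at part of their peaks. Of 262 peaks at 19 stem-like and quiescence regulators, 34 fell and 7 rose, 12.98% and 2.67% against 3.3% and 4.35% of all peaks. Falls were spread over 13 genes, with 7 of 11 peaks at Ccr7, 6 of 46 at Foxp1, 5 of 12 at Tcf7 and 4 of 9 at Cxcr5. The list's median log2 difference was -0.16, against 0.01 over all peaks. Leaving out 1 library left 10 to 19 falls and 3 to 4 rises. With OTC 21 of the 262 peaks fell and 6 rose (2.73% and 3.82% of all peaks), and with the Dusp5 guide 27 and 6 (2.75% and 4.58%). The state difference was called different between Zfp219 and OTC at 0 of these peaks, and between Zfp219 and Dusp5 at 3. Over all peaks the shares were 0.303% and 1.35%, so such low counts do not show that the guides agree. With the Zfp219 guide Lef1, which encodes a relative of TCF1, had 3 rises and no fall. The rise with the largest difference (log2 difference 0.91, SE 0.28, limma adjusted p = 0.0303) was not called by edgeR (adjusted p = 0.061) or DESeq2, in the aged or compared groups alone, after thinning, or without Tprog replicate 1 or either Ttad library (adjusted p up to 0.38).

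Near Ccr7, the chemokine receptor that brings T cells to lymph nodes, a peak 15659 bases from the gene (chr11:99170736-99171681) had 483 and 521 normalised reads in Tprog and 223 and 206 in Ttad. It was 2.34-fold lower in Ttad (log2 difference -1.22, SE 0.24, limma adjusted p = 0.00018). Its lowest level was in Tterm, at 105 and 97.7, and Ttad stood above Tterm by 1.07 on the log2 scale (adjusted p = 0.00424). Foxp1 encodes a factor that holds T cells in quiescence. A peak in its body (chr6:99309113-99309977) had 166 and 149 in Tprog and 36.5 and 35.0 in Ttad, 4.42-fold lower (log2 difference -2.11, SE 0.33, adjusted p = 2.01e-06). Tterm had 31.0 and 34.2, and its difference from Ttad did not pass (log2 difference 0.13, limma adjusted p = 0.94). Tcf7's strongest peak, 15935 bases from the gene, fell by 0.34 on the log2 scale, from 1156 and 1018 normalised reads to 865 and 846 (SE 0.09, limma adjusted p = 0.00548). That call was lost without Tprog replicate 1 or Ttad replicate 2 (adjusted p up to 0.204). The Bach2 locus, which restrains effector differentiation, was mixed. A strong peak 72992 bases from it (chr4:32164032-32165421) rose from 933 and 964 to 1245 and 1272 (log2 difference 0.41, SE 0.08, limma adjusted p = 0.000288), and another of its 35 peaks fell.

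**Figure D3:**
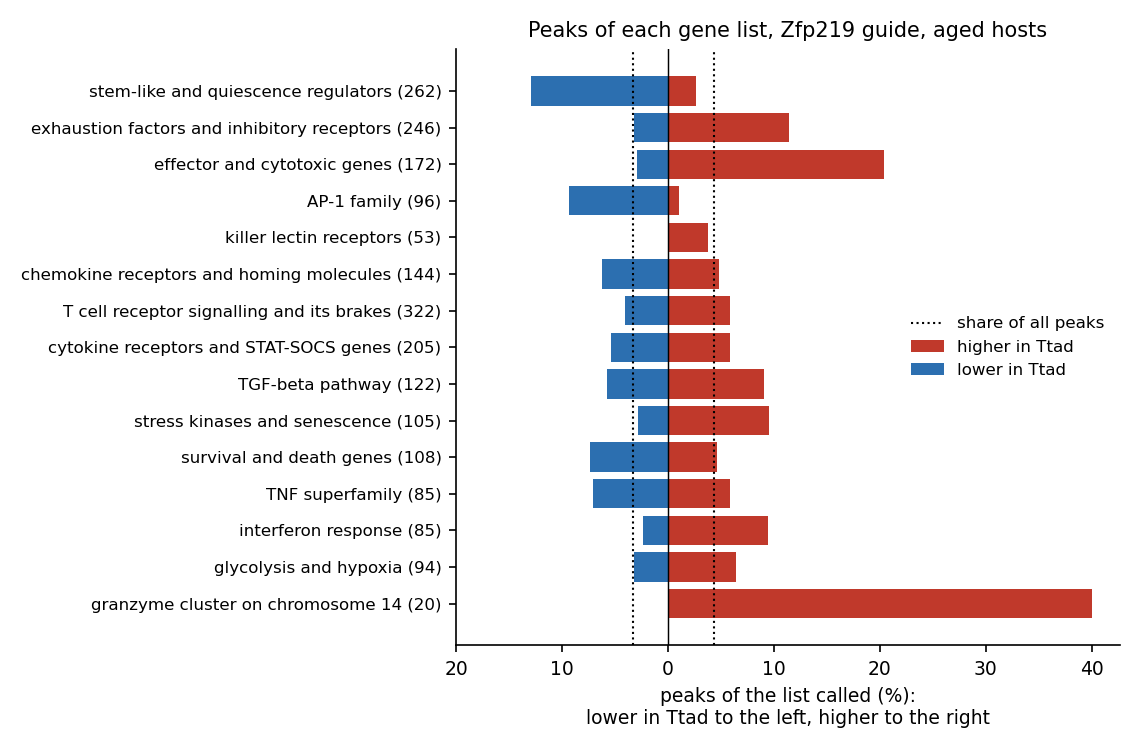
Share of the peaks of each gene list that were called between Ttad and Tprog with the Zfp219 guide, in percent, lower to the left and higher to the right (number of peaks in brackets; dotted: 3.3% and 4.35% of all peaks). Stem-like genes stand out on the left at 12.98%, and effector genes and the granzyme cluster on the right at 20.3% and 40%; the cluster was chosen after its values were seen.

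Effector and cytotoxic genes opened at part of their peaks. Of 172 peaks at 19 genes, 35 rose and 5 fell, 20.3% and 2.91% against 4.35% and 3.3% of all peaks. The other 132 were not called. The list's median log2 difference was 0.22 against 0.01 over all peaks. Ifng, which encodes interferon gamma, had 8 rises among 27 peaks. Ccl3, a chemokine of activated T cells, had 4 of 4, Zeb2 4 of 21, and Prf1, encoding perforin, 3 of 6. Leaving out 1 library left 19 to 28 rises and 0 to 2 falls, and quantile normalisation gave 35 and 4. With OTC 36 of the 172 peaks rose and 2 fell (3.82% and 2.73% of all peaks), and with the Dusp5 guide 29 and 2 (4.58% and 2.75%). The state difference was called different from either of them at 0 of these peaks, against 0.303% (OTC) and 1.35% (Dusp5) of all peaks. The falls with the Zfp219 guide were 3 at Il2, the growth-factor gene that exhausted cells silence early, and 2 at Fasl.

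The strongest Ifng peak, 23001 bases from the gene (chr10:118468895-118471093), had 1018 and 1011 normalised reads in Tprog and 1319 and 1350 in Ttad. The libraries of each state lay close together, and the 1.32-fold difference was larger than their spread (log2 difference 0.39, SE 0.08, limma adjusted p = 0.000248). A weaker Ifng peak 70935 bases off (chr10:118516829-118518208) rose more in proportion, from 9.95 and 18.3 to 41.5 and 54.6 (log2 difference 1.74, SE 0.33, adjusted p = 0.000123).

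Among exhaustion factors and inhibitory receptors, rises lay mostly at a few genes. Of 246 peaks at 23 genes, 28 rose and 8 fell, 11.4% and 3.25% against 4.35% and 3.3% of all peaks. The share of falls was thus that of all peaks, and the list's median of 0.03 was close to the 0.01 of all peaks. Of the rises, 8 of 12 peaks were at Entpd1, 7 of 22 at Prdm1, 4 of 9 at Id2 and 3 of 4 at Cd244a. The receptor and surface genes Lag3, Tigit, Cd160, Cd38, Cd101 and Cd200 had no called peak, and Ctla4 had 1 each way. With OTC 24 of the 246 peaks rose and 3 fell (3.82% and 2.73% of all peaks), and with the Dusp5 guide 20 and 8 (4.58% and 2.75%). The state difference was called different between Zfp219 and OTC at 0 of these peaks, and between Zfp219 and Dusp5 at 5 (0.303% and 1.35% of all peaks). With the Zfp219 guide Tox, the factor that fixes the exhausted state, had 2 falls and no rise among 27 peaks. Nr4a3 had 2 falls and 1 rise, and Tox2, Nr4a1 and Eomes had 1 fall each and no rise. Without 1 library 15 to 22 rises and 2 to 4 falls were left.

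Entpd1 encodes CD39, an ectoenzyme that breaks down extracellular ATP and marks terminal exhaustion. Its promoter peak (chr19:40659633-40662398) had 280 and 238 normalised reads in Tprog and 478 in each Ttad library. This was 1.85-fold higher (log2 difference 0.89, SE 0.12, limma adjusted p = 3.42e-08), and still below Tterm at 709 and 668 (log2 difference of Ttad from Tterm -0.52, adjusted p = 0.00476). Prdm1 encodes Blimp-1, a repressor of Tcf7. Its peak at chr10:44449764-44451102, in the gene body, had 200 and 211 in Tprog and 394 and 412 in Ttad (log2 difference 0.97, SE 0.14, limma adjusted p = 1.86e-07). At Cd244a, the inhibitory receptor 2B4, a gene-body peak (chr1:171559903-171561514) went from 66.8 and 64.0 to 197 and 165 (log2 difference 1.45, SE 0.22, adjusted p = 1.14e-06). Pdcd1, encoding PD-1, was open in both states, with 2235 and 2359 normalised reads at its promoter peak (chr1:94051833-94056880) in Tprog and 2827 and 2817 in Ttad. The rise was 1.23-fold (log2 difference 0.30, SE 0.06, limma adjusted p = 7.38e-05), and with the Dusp5 guide the log2 difference was -0.14 (adjusted p = 0.0951). The 2 differences were 0.44 apart (SE 0.08, limma adjusted p = 0.00016), a call kept without any 1 of the 4 libraries.

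Among AP-1 genes, whose products pair to bind DNA after T cell receptor signalling, 9 of 96 peaks fell and 1 rose, 9.38% and 1.04% against 3.3% and 4.35% of all peaks. With OTC 5 of these peaks fell and 3 rose (2.73% and 3.82% of all peaks). With the Dusp5 guide 1 fell and 2 rose (2.75% and 4.58% of all peaks), so no excess of falls was seen there. The state difference was called different from OTC or Dusp5 at 0 of these peaks (0.303% and 1.35% of all peaks). Jun had 3 of the falls with the Zfp219 guide. A peak 44555 bases from it (chr4:95096777-95097213) had 61.1 and 78.2 normalised reads in Tprog and 11.9 and 15.3 in Ttad, 5.12-fold lower (log2 difference -2.27, SE 0.47, limma adjusted p = 0.000465). The single rise was at Mafk, a small Maf protein, from 343 and 415 to 507 and 574 (log2 difference 0.51, SE 0.11, limma adjusted p = 0.000386). Without Tprog replicate 1 it was not called (adjusted p = 0.0812). Leaving out 1 library left 4 to 5 falls and at most 1 rise.

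The remaining lists moved in both directions or at few peaks. Among T cell receptor signalling genes and their brakes, 19 of 322 peaks rose and 13 fell, with 8 to 10 and 6 to 9 left without 1 library. The shares were 5.9% and 4.04%, near the 4.35% and 3.3% of all peaks. Dusp5, a phosphatase that restrains ERK, had 6 of the rises among its 17 peaks, and the kinase gene Fyn 4 of the falls. Near Icos, a costimulatory receptor gene, a peak 54052 bases away (chr1:61054374-61055380) had 159 and 202 normalised reads in Tprog and 298 and 356 in Ttad. It rose 1.81-fold (log2 difference 0.86, SE 0.15, limma adjusted p = 2.33e-05). With OTC it had 315 and 325 in Tprog and 288 in each Ttad library, and the 2 differences were 1.01 apart (SE 0.21, limma adjusted p = 0.00899). That difference was not called without Tprog replicate 1 or Ttad replicate 2 (adjusted p up to 0.136).

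Chemokine receptor and homing genes had 7 rises and 9 falls among 144 peaks, with 3 to 6 and 2 to 5 left without 1 library. Rises were 4.86% of the list and falls 6.25%, against 4.35% and 3.3% of all peaks. Ccr6, a receptor for CCL20, gave a deep fall 961 bases from the gene (chr17:8233162-8235080), from 462 and 494 normalised reads to 159 and 155. Ttad was 3.05-fold lower (log2 difference -1.60, SE 0.24, limma adjusted p = 5.94e-07) yet stood above Tterm, at 52.6 and 63.5, by 1.43 (adjusted p = 5.03e-05). In the Ccr2 body (chr9:124102786-124103959), a receptor of inflammatory homing, the values went from 95.3 and 119 to 217 and 191 (log2 difference 0.93, SE 0.19, adjusted p = 0.000412). Killer lectin receptor genes, shared with natural killer cells, had 2 rises among 53 peaks, with 1 to 2 left without 1 library. The 2 rises were 3.77% of that list, near the 4.35% of all peaks. At the Klrc2 promoter (chr6:129660127-129660714), part of the NKG2 receptor family, Tprog had 28.4 and 32.5 and Ttad 100 and 88.7 (log2 difference 1.60, SE 0.28, limma adjusted p = 3.25e-05). How reads were placed among related family members was not examined.

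Cytokine receptor and STAT genes had 12 rises and 11 falls among 205 peaks, with 5 to 7 and 2 to 6 left without 1 library. Rises were 5.85% of the list and falls 5.37%, against 4.35% and 3.3% of all peaks. Beside Il18r1, the interleukin-18 receptor (chr1:40501132-40502528), values rose from 145 and 99.5 to 269 and 294 (log2 difference 1.22, SE 0.17, limma adjusted p = 1.78e-07). In Stat4, which relays interleukin-12 (chr1:52022195-52022719), they fell from 108 and 161 to 48.3 and 34.1 (log2 difference -1.68, SE 0.35, adjusted p = 0.000573). Interferon response genes had 8 rises and 2 falls among 85 peaks, 3 of the rises at Irf8, with 4 to 7 and 0 to 1 left without 1 library. In that list 9.41% of peaks rose and 2.35% fell. A peak 34571 bases from Irf8 (chr8:120791265-120792238) had 168 and 180 in Tprog and 443 and 379 in Ttad (log2 difference 1.24, SE 0.16, limma adjusted p = 3.96e-08), again below Tterm at 530 and 604 in level, without passing (adjusted p = 0.149).

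TNF superfamily genes had 5 rises and 6 falls among 85 peaks, with 1 to 3 and 3 to 5 left without 1 library. The shares were 5.88% and 7.06%, and 4.63% and 7.41% for the survival and death genes below, against 4.35% and 3.3% of all peaks. The peak 13635 bases from Cd70, the ligand of CD27 (chr17:57131275-57132362), fell from 350 and 325 normalised reads to 126 and 113 (log2 difference -1.49, SE 0.21, limma adjusted p = 1.07e-07). Survival and death genes had 5 rises and 8 falls among 108, with 4 falls at Bcl2, which protects long-lived cells, and 3 rises at Cflar; without 1 library 1 to 4 rises and 2 to 5 falls were left.

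Stress kinase and senescence genes had 10 rises and 3 falls among 105 peaks, with 3 of the rises at Mapk14, which encodes the kinase p38 alpha, and 3 to 10 rises and 1 to 3 falls left without 1 library. Rises were 9.52% of the list and falls 2.86%, against 4.35% and 3.3% of all peaks. A peak 10917 bases from Gadd45g, an activator of the p38 pathway (chr13:51859392-51860516), rose from 85.3 and 121 to 269 and 211 (log2 difference 1.22, SE 0.19, limma adjusted p = 1.24e-06). TGF-beta pathway genes had 11 rises and 7 falls among 122, with 4 rises at Tgfbr2, and 3 to 4 rises and 1 to 4 falls without 1 library. In the TGF-beta list 9.02% of peaks rose and 5.74% fell. The Runx1 peak at chr16:92620564-92621549 rose from 454 and 437 to 599 and 684 (log2 difference 0.52, SE 0.10, adjusted p = 0.000186). Glycolysis and hypoxia genes had 6 rises and 3 falls among 94, near the shares of all peaks, 3 and 5 after quantile normalisation, and 1 to 3 each way without 1 library.

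The 10 largest called rises were taken among peaks with a gene within 100 kb, no overlap between the 4 libraries and a mean of at least 20 in Ttad, 1 peak per gene. Nsmce1 encodes a subunit of the SMC5/6 DNA repair complex. A peak 185 bases from it (chr7:125466616-125467459) had 7.11 and 16.2 normalised reads in Tprog and 82.2 and 95.5 in Ttad, 7.61-fold higher (log2 difference 2.92, SE 0.32, limma adjusted p = 3.81e-11). With OTC it had 22.6 and 45.2, and 35.2 and 35.7, and the 2 differences were 2.78 apart (SE 0.45, limma adjusted p = 0.000113), a call kept without any 1 of the 4 libraries and by edgeR (adjusted p = 0.000914). In Foxred2, a gene of protein quality control in the endoplasmic reticulum, a peak (chr15:77945537-77946180) went from 4.27 and 13.2 to 70.4 and 69.9 (log2 difference 3.04, SE 0.45, adjusted p = 8.16e-07). With OTC it rose by 2.81. Peaks in Map7, a microtubule-associated protein gene, and Cnnm2, linked to magnesium transport, rose by 2.97 (SE 0.51) and 2.795 (SE 0.52). The other 5 besides Gzmf, at Dnah8, Gzmd, Ap5z1, Prpsap2 and Vmn1r206, each lost the call without at least 1 library.

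The deepest falls ended near 0 reads. In Syde2 (chr3:146004554-146005157), Tprog had 54.0 and 42.6 normalised reads and Ttad 0 and 3.41, against 5.17 and 1.63 in Tterm. The log2 difference was -4.54 (SE 0.89, limma adjusted p = 0.000185). At a peak 21853 bases from Rps6ka5, which encodes the stress-activated kinase MSK1 (chr12:100747181-100747501), Tprog had 37.0 and 27.4 and Ttad 0.848 and 0.853, a single read in each library. Tprog was 36.9 times as high, with a 95% counting interval of 9.73 to 313. In Nf1, a brake on Ras (chr11:79460521-79461282), the values were 75.3 and 56.9, and 1.70 and 5.97 (log2 difference -3.94, SE 0.79, limma adjusted p = 0.000248). Gigyf2, Rgs10, Cpxm2 and Bicra, with log2 differences from -4.37 to -3.49, kept their calls without any 1 library, while Hsdl1, Patj and Stambpl1 did not. These falls were chosen by the rule used for the rises, with the mean taken in Tprog. That the 2 Tprog libraries lay above both Ttad libraries was therefore part of the choice. With OTC each of these differences was also below 0.

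**Figure D4:**
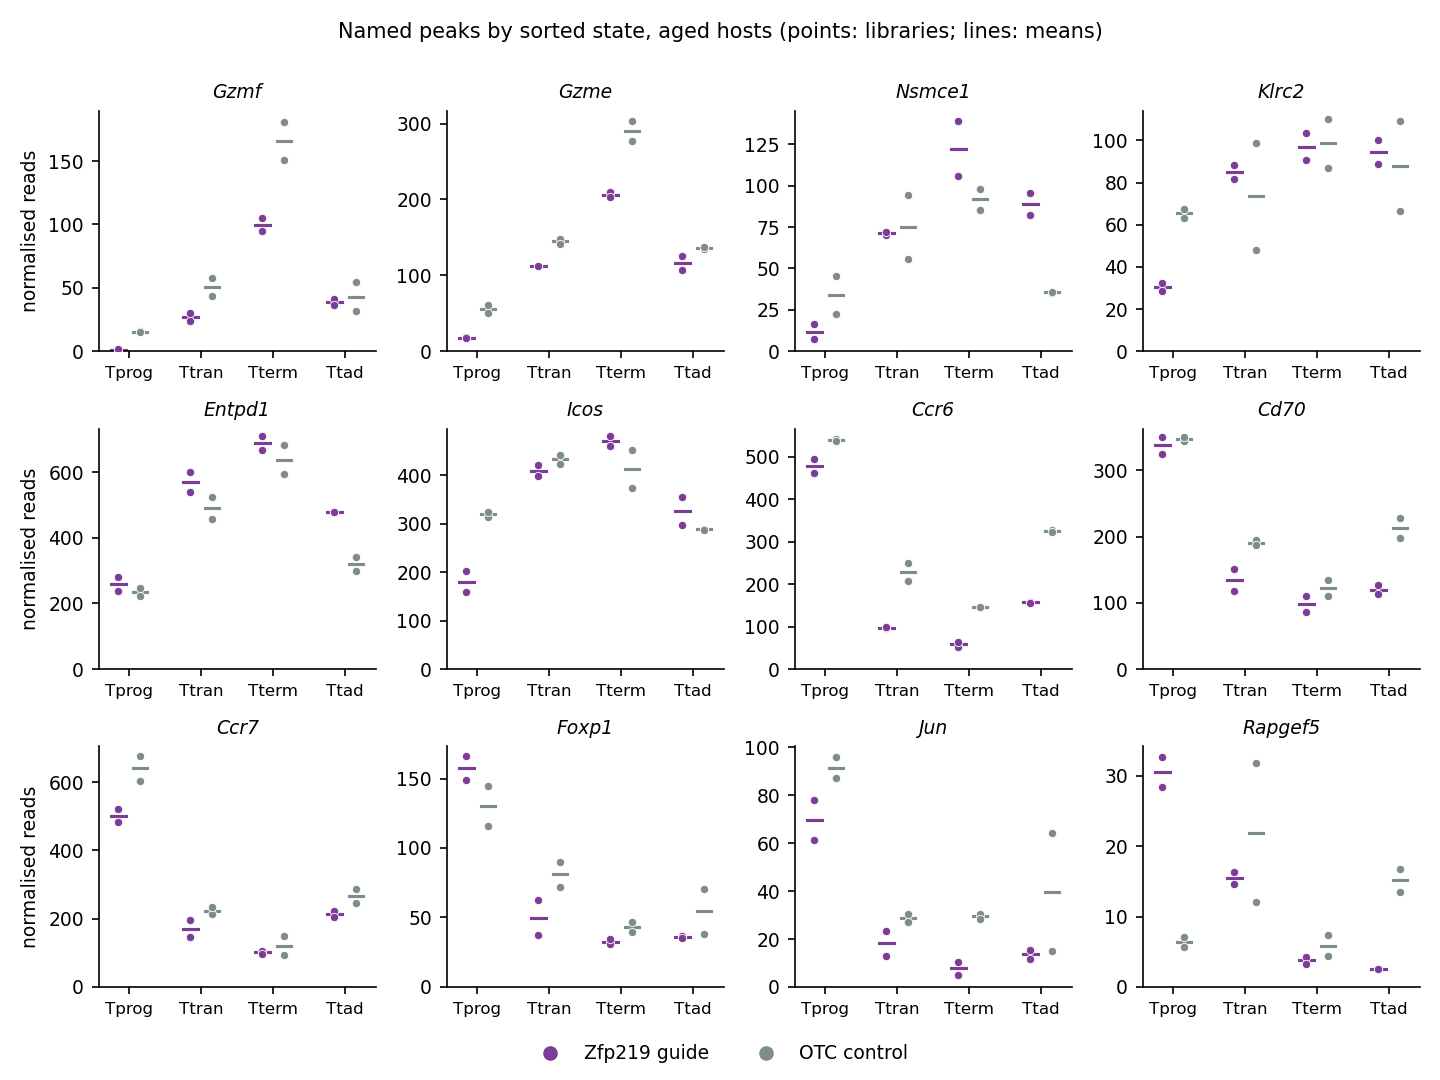
Normalised reads (y axis from 0) at 12 named peaks in the 4 sorted states of aged hosts, for the Zfp219 guide and the OTC control (points: libraries, 2 per group; lines: means). At Gzmf, Gzme and Entpd1 the Zfp219 Ttad libraries lie between Tprog and Tterm, and at Ccr7 and Ccr6, which fall, they also lie between those states.

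The same contrast in cells with other guides called 3531 peaks with OTC (6.55%) and 3949 with the Dusp5 guide (7.33%). None of these comparisons shares a library with the Zfp219 comparison. Of the Zfp219 peaks, 1243 were called in the same direction with OTC, 30.2% of the Zfp219 list and 35.2% of the OTC list, and 11 in the opposite one. With Dusp5 the numbers were 1169, 28.4% and 29.6%, and 58 opposite. Called or not, 3559 of the 4119 (86.4%) had the same sign with OTC and 3353 (81.4%) with Dusp5. A peak not called with another guide is thus not shown to lack the difference there. Over the 2344 rises the median log2 difference was 0.63 with the Zfp219 guide, which chose them, and 0.32 with OTC. Over the 1775 falls these were -0.97 and -0.50. Because the peaks were chosen on the Zfp219 libraries, these medians give no test of a difference between guides.

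The difference itself was tested peak by peak. The Ttad against Tprog difference differed between Zfp219 and OTC at 163 peaks (0.303%), 76 of them more positive with Zfp219 (0.141%) and 87 more negative (0.162%). With edgeR there were 152, split 49 and 103, and after quantile normalisation 101, split 56 and 45. Thinning to equal depth gave 229, split 111 and 118. Without 1 library there were 49 (either Ttad replicate), 56 (Tprog replicate 1) or 216 (Tprog replicate 2). Between Zfp219 and Dusp5 it differed at 726 peaks (1.35%), 396 more positive (0.735%) and 330 more negative (0.613%). After quantile normalisation it differed at 498, split 201 and 297, and after thinning at 975, split 545 and 430. Without 1 library these were 234 (Ttad replicate 2) to 521 (Tprog replicate 2). Of 58 peaks called in both tests 57 went the same way; the tests share the 4 Zfp219 libraries. Of the 163, 76 were also called between Ttad and Tprog within Zfp219.

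A peak in the Thy1 body (chr9:44046603-44047436) gave the smallest adjusted p against OTC of any peak with a gene within 100 kb (4.08e-27, limma; a difference between differences of -3.61, SE 0.20). With the Zfp219 guide it had 191 and 219 normalised reads in Tprog, 3158 and 3153 in Ttran, 135 and 125 in Tterm and 567 and 668 in Ttad. With OTC it had 135 and 122 in Tprog, 4884 and 4611 in Ttad and 959 and 829 in Tterm. With Dusp5 Tprog had 177 and 222 and Ttad 208 and 172. Libraries of 1 group lay together, but the order of the states was not the same in the 3 guides. The strongest Thy1 peak, 11009 bases from the gene, lay between 796 and 1092 in the Tprog and Ttad libraries of the 3 guides. It rose by 0.28 on the log2 scale in Ttad with the Zfp219 guide (SE 0.08, limma adjusted p = 0.0256), a call lost without each of the 4 libraries in turn (adjusted p up to 0.183) and after quantile normalisation.

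Finally, the Zfp219 peaks were set against the difference between Tterm and Tprog in young OTC cells, which called 14279 peaks (26.5%). Of the 4119 peaks, 2892 were called in the same direction there, 70.2% of the Zfp219 list and 20.3% of the young list, and 24 in the opposite one. Over the 6767 peaks higher in young Tterm, the median log2 difference of Ttad from Tprog was 0.30 with the Zfp219 guide, 0.22 with OTC and 0.24 with Dusp5. Over the 7512 lower peaks the medians were -0.40, -0.26 and -0.19, against medians of all peaks between -0.00267 and 0.0164. The guides stood in the same order over the weakest 13467 peaks of the table, at -0.215, -0.154 and 0.129. There the Zfp219 median was -0.055 after quantile normalisation. The young sets were not matched for peak strength, and the part of that shift in their medians was not tested. Among the 7512 lower peaks, 62 were called more negative with Zfp219 than with OTC and 4 more positive, where all peaks gave 0.162% and 0.141%. Among the higher ones, 29 were called more positive and 9 more negative. Within the Zfp219 guide, Ttad and Tterm still differed at 942 peaks (1.75%), 341 higher (0.633%) and 601 lower (1.12%) in Ttad.

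**Figure D5:**
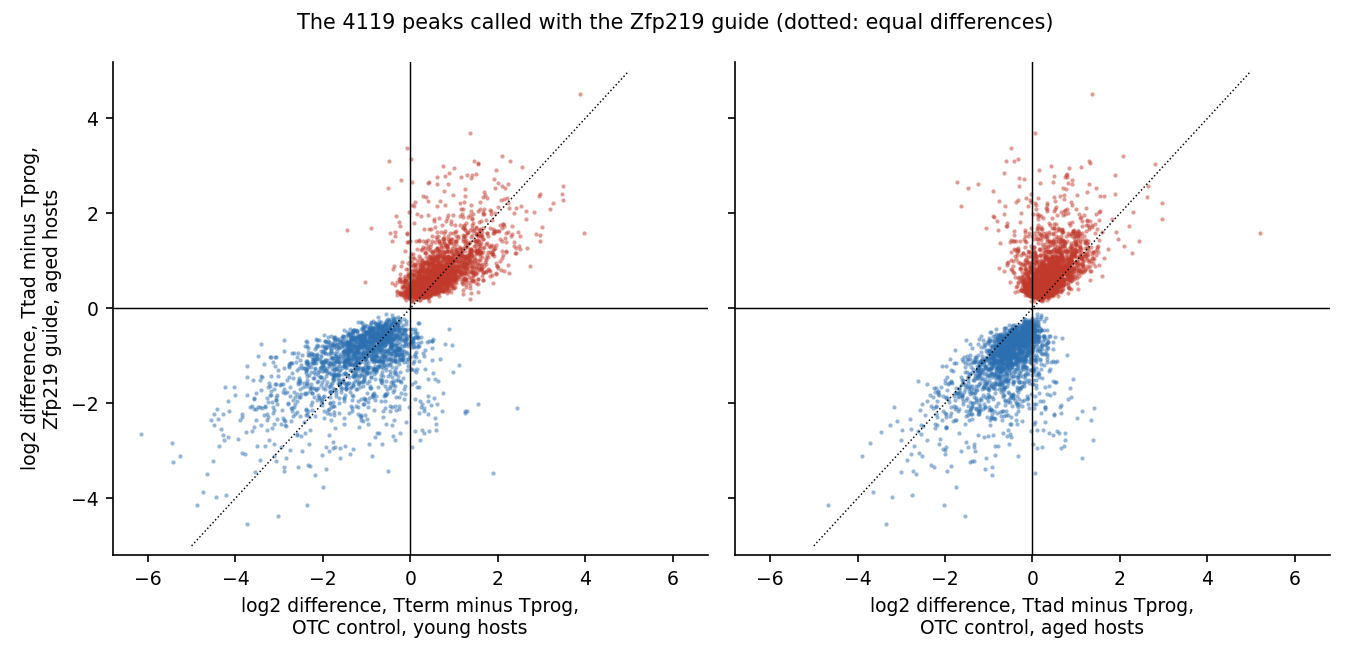
Log2 difference, Ttad minus Tprog, of the 4119 peaks called with the Zfp219 guide against the young OTC difference of Tterm from Tprog (left) and against the aged OTC difference of Ttad from Tprog (right). On the left 2892 of the peaks were called in the same direction in both, and on the right 1243.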

How the data were processed

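ATAC-seq values came from 1 deposited table of 53868 peaks by 48 libraries. Its values are a signal that the authors made as reads per peak divided by 1 size factor per library: whole multiples of 1 step, within 0.01, were found in every column tested. Bowtie2 2.2.9, Picard 2.8.0, SAMtools 1.3.1, MACS2 2.1.1, DESeq2 1.28.1 and the build mm10 are named in the submitters' processing notes, without role or order. Libraries were grouped by their titles.

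The main test was limma 3.58.1 (R 4.3.3, lmFit and eBayes with trend) on log2(value + 1), with 1 mean per group over all 48 libraries, Benjamini-Hochberg adjustment over all peaks and a threshold of 0.05. A fold change on this scale understates the change of weak peaks. An exact permutation test of 2 against 2 libraries cannot go below 0.333. Depth in peaks ran from 5638413 to 29942755 reads over the 48 libraries. Alternatives were edgeR 4.0.16 and DESeq2 1.42.0 on the recovered reads of 47 libraries (in 1 column the step lay too near 1 to check), other scalings, pseudocounts, filters and sample sets, a replicate block, each of the 4 libraries left out, and thinning, which was chosen after seeing the data. On simulated data of 53868 peaks with 100 changed at each size, limma recovered 60% of 2-fold and 88% of 4-fold changes, with 17 false calls. Those 17 are to be read beside the changed peaks recovered, not beside all 53868. Far fewer peaks were changed than the 4119 called in the data, so these rates need not carry over. The changes were placed only in peaks with a mean of at least 20, so recovery at weaker peaks was not measured. Every simulated peak had a variance of 3 times counting noise.

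Peaks were given to the RefSeq gene (GRCm38.p6) they overlap or the nearest within 100 kb, which is no proof of a target. A boundary of 50.1% of 21900 genes lay in a peak, against 7.94% and 8.06% after shifts of 5000 and 100000 bases. Named peaks were the 10 largest called differences a direction, the strongest peaks of set genes, up to 3 called genes a list and direction, the genes with most called peaks, and the 5 largest differences between guides a direction. In the text, peaks that kept their call without any 1 library were preferred. The comparison, gene lists and named peaks were chosen with earlier results of these data known. Counting intervals cover counting error only.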

Additional observations from a re-analysis of the deposited data

Results flagged for a closer look

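The difference between Ttad and Tprog differed by guide at some peaks, by a test of the difference itself (limma, adjusted over all peaks). Against OTC this held at 163 peaks. The 5 largest a direction with a mean of at least 20 in 1 of the 4 groups were more positive with the Zfp219 guide, on the log2 scale, by 3.793 at Pip4k2c, 3.725 at Ust, 3.514 at Dnah8, 3.491 at Prpsap2 and 3.152 at Gzmf. They were more negative, with differences of -4.279 at Rapgef5, -3.611 at Thy1, -3.278 at Prkd3, -2.502 at Mrtfb and -2.414 at Mad1l1. Of these 10, the Thy1 peak kept the call without any 1 of the 4 Zfp219 libraries, and each of the others lost it without at least 1.

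Rapgef5 encodes an exchange factor for Rap GTPases. Its gene-body peak had 32.7 and 28.4 normalised reads in Tprog and 2.54 and 2.56 in Ttad with the Zfp219 guide, and 5.66 and 7.10, then 16.8 and 13.6, with OTC. The values of the 2 guides thus went in opposite directions there (limma adjusted p = 0.00849), and without Tprog replicate 1 the difference was not called (adjusted p = 0.0584).

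Against the Dusp5 guide the difference held at 726 peaks. The largest positive ones were 3.904 at Cblc, 3.811 at Lca5, 3.178 at 1700017B05Rik, 3.012 at Hpn and 2.887 at Dnah8. The largest negative ones were -6.243, -4.972 and -4.790 at 3 peaks with no gene within 100 kb, on chromosomes 4, 12 and 2, -4.713 at Zfp978 and -4.648 at Banf2. The peak on chromosome 2 and the one at Zfp978 kept the call without any 1 of the 4 Zfp219 libraries, and each of the other 8 lost it without at least 1.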

How the results depend on the processing

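The 126 called named peaks kept their direction under each alternative run. Leaving out 1 of the 4 libraries gave 1826 to 2533 called peaks, 1014 to 1634 higher and 712 to 899 lower; for the difference between guides it gave 49 to 216 peaks against OTC and 234 to 521 against Dusp5. Of the 126, 43 kept the call without any 1 library. DESeq2 called 364 peaks against OTC and 1222 against Dusp5. Against OTC, the fit of aged libraries gave 102 (28 more positive, 74 more negative) and quantile normalisation 101. The other settings stayed within 1.5 times of each main count; the causes were not tested. The balance of directions was less stable. Against OTC it turned to more positive peaks after quantile normalisation (56 and 45) and without Tprog replicate 1 (29 and 27) or 2 (130 and 86). Against Dusp5 it turned to more negative ones after quantile normalisation (201 and 297), in the aged (329 and 413) and compared groups (295 and 382), with a pseudocount of 8 (450 and 457), and without any 1 library but Tprog replicate 2. The median-of-ratios scaling left the 4119 calls as they were. No shared deviation of same-numbered libraries was measured (correlation -0.0109), and the labels do not pair them; with the replicate block 4033 peaks were called, 150 against OTC and 658 against Dusp5. Counting only peaks that overlap gene bodies left 2 rises and 18 falls among 152 stem-like peaks, and 14 and 0 among 52 effector peaks. With 2 libraries a group, peaks of few reads limit what can be called.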

Other observations

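Outside the gene lists, some loci had many peaks that moved one way with the Zfp219 guide. Prex1, an exchange factor for Rac, had the most rises, 13 of 32 peaks with no fall. Its largest, 25736 bases from the gene, had 24.2 and 45.7 normalised reads in Tprog and 112 and 118 in Ttad (log2 difference 1.76, SE 0.27, limma adjusted p = 2.32e-06). Litaf had 8 of 14 peaks higher and Tmem163 8 of 20. Near Litaf, 8591 bases from the gene, the values went from 44.1 and 37.6 to 146 and 136 (log2 difference 1.76, SE 0.28, limma adjusted p = 2.15e-06). On the falling side, Cd83, a surface protein of activated lymphocytes, had 7 of 14 peaks lower. Etv6, which encodes an ETS-family repressor, had 6 of 29, and 3624 bases from it the values went from 287 and 228 to 68.7 and 78.4, a log2 difference of -1.79. These genes were chosen by their number of called peaks, so the counts describe that choice.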
